A study of Mus musculus with 24 samples.

Results

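The respiratory chain subunits were the protein-coding genes whose Gencode symbol named a subunit of complex I (Nduf followed by a, b, c, s or v and a digit), complex II (Sdha to Sdhd), complex III (Uqcr), complex IV (Cox4 to Cox8) or the ATP synthase, here complex V (Atp5). The genes of the mitochondrial genome named for the same complexes were included. The choice was made by names, with no threshold on a measured value. It gave 97 of the 49671 genes in the count table, 84 in the nucleus and 13 in the mitochondrial genome. The nuclear genes were 35 of complex I, 4 of complex II, 8 of complex III, 20 of complex IV and 17 of complex V. The mitochondrial genes were 7 of complex I, 1 of complex III, 3 of complex IV and 2 of complex V. A filter on low counts left 95 of them for testing, and the 2 it removed were Cox7b2, with at most 16 counts in a library, and Cox8c, with at most 2.

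The study set astrocytes made from mouse embryonic stem cells beside primary mouse astrocytes by RNA-seq, with 24 libraries in 6 groups of 4. NSC were neural stem cells derived from 1 embryonic stem cell line (GSC-5003, stated to come from C57Bl/6 N mice), kept with the growth factors FGF and EGF on gelatin, and AGES were astrocytes made from them with 20 ng/ml BMP4 for 3 to 5 days, without FGF and EGF, on poly-ornithine and laminin. A replicate was a culture of another passage, between 50 and 60, so that both groups rest on 1 line. Primary astrocytes came from C57BL/6 J mice of both sexes, neonatal (neoAC, 4 to 8 days old) or adult (AdAC, 100 to 140 days old), and were enriched with magnetic beads against the surface antigen ACSA-2. A primary replicate was a separate isolation, stated to take 2 mice for neonatal and adult astrocytes alike. They were either frozen directly after isolation (neoAC direct, AdAC direct) or grown in vitro for 7 to 10 days (neoAC CellC, AdAC CellC). Adult tissue went through another kit, with a debris and a red blood cell step, so that age and the way of isolation cannot be told apart. The methods state the removal of the olfactory bulb and cerebellum for the direct isolation of adult cells, and not for adult cultures, so that brain region may differ between AdAC direct and AdAC CellC.

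The respiratory chain passes electrons from NADH (complex I) and succinate (complex II) through ubiquinone, complex III and cytochrome c to oxygen at complex IV, and complexes I, III and IV pump protons across the inner mitochondrial membrane. The ATP synthase uses the return of these protons to make ATP. Complex II is encoded in the nucleus alone, whereas each of the other complexes joins nuclear subunits, imported as proteins, with a few hydrophobic subunits transcribed and translated inside the mitochondrion, so that 2 genomes supply 1 machine. Several subunits of complex IV exist as a widespread form and as a form restricted to muscle, testis, lung or low oxygen. Astrocytes are known to combine active mitochondria with a high rate of glycolysis.

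Levels are given as CPM, the count of a gene over 1e6 counts of its library, scaled by TMM, a factor per library that compensates for differences in RNA composition. They stand as mean ± SD (n = 4) or as all 4 libraries in replicate order. Library totals lay between 27904126 and 37997368 counts. The floor of detection, 3 counts, corresponds to 0.079 to 0.11 CPM and covers counting error alone. A gene was called higher or lower in a comparison when its Benjamini-Hochberg adjusted p in edgeR's quasi-likelihood test, over the 19691 genes tested, was under 0.05. The value after ± of a log2 fold change is its standard error. The labels were checked against markers of cell types. All 9 astrocyte markers were detected in every group. Their summed level was 55086 to 60009 CPM in AGES, 21183 to 24174 in neoAC direct, 15990.5 to 16718 in AdAC direct, 7402 to 8603 in neoAC CellC, 1942 to 2469 in NSC. It was lowest in AdAC CellC, with 918 to 1411 CPM. The AGES sum rested on Gfap, at 48327 to 52915 CPM there; the other 8 markers summed to 6162 to 7095 CPM in AGES, 19638 to 22425 in neoAC direct, 15828 to 16547 in AdAC direct and 4749 to 5532 in neoAC CellC. Gja1 (3.68 to 20.4 CPM) and Aldh1l1 (11.2 to 19.9) in AGES overlapped their levels in NSC (13.5 to 16.8 and 9.29 to 30.3). The 7 oligodendrocyte markers summed to 26627 to 29513 CPM in AdAC direct and 4351 to 11123 in AdAC CellC, against 252 to 339 and 324 to 398 in cultured and direct neoAC and at most 43.3 in NSC and AGES. In 2 libraries, neoAC direct 4 and AdAC direct 4, the mitochondrial genes stood above those of the other 3 of their group, and values without them stand beside the results that rest on them. AGES 1 stood above the other AGES libraries in the same way, by less.

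The summed level of the nuclear subunits set directly isolated adult astrocytes apart from every other group. It was 6628 ± 249 CPM in AdAC direct (6318 to 6925), below all 20 libraries of the other groups. The next groups were AGES at 9561 ± 145 CPM, neoAC direct at 9656 ± 892 and AdAC CellC at 9776 ± 262, whose ranges overlapped, followed by neoAC CellC at 11172 ± 337 and NSC at 12360.3 ± 1273, which overlapped each other. The NSC libraries spread the most (11262 to 13722 CPM), and the AGES libraries the least (9363 to 9695). The mitochondrial genes followed another order. Their sum was 22905 ± 5380.5 CPM in NSC, 19431 ± 1854 in AGES and 17913 ± 2360.5 in neoAC CellC. It was 12720.3 ± 3065 CPM in AdAC direct, 12683 ± 4454 in neoAC direct and 12061 ± 947 in AdAC CellC, which overlapped. Without replicate 4, it was 11266 ± 1185 CPM in AdAC direct and 10457 ± 221 in neoAC direct (n = 3). Set against the nuclear sum, the mitochondrial sum was 2.03 ± 0.198 times the nuclear one in AGES, 1.93 ± 0.533 in AdAC direct, 1.86 ± 0.419 in NSC and 1.61 ± 0.259 in neoAC CellC. It was 1.35 ± 0.609 in neoAC direct and 1.24 ± 0.117 in AdAC CellC. The places of the directly isolated groups in this order rested on replicate 4, without which the ratio was 1.67 ± 0.164 in AdAC direct, below NSC, and 1.05 ± 0.0852 in neoAC direct, below AdAC CellC. Counted per kilobase of mRNA, the ratio was 1.32 in AdAC direct and 1.14 without its replicate 4, beside 1.27 in NSC, 1.23 in AGES and 0.805 in AdAC CellC. In neoAC direct it was 0.897, above AdAC CellC, and 0.691 without replicate 4, below it. These sums are descriptions without a test, and in bulk RNA fewer cells of a kind and less RNA per cell cannot be told apart.

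**Figure D1:**
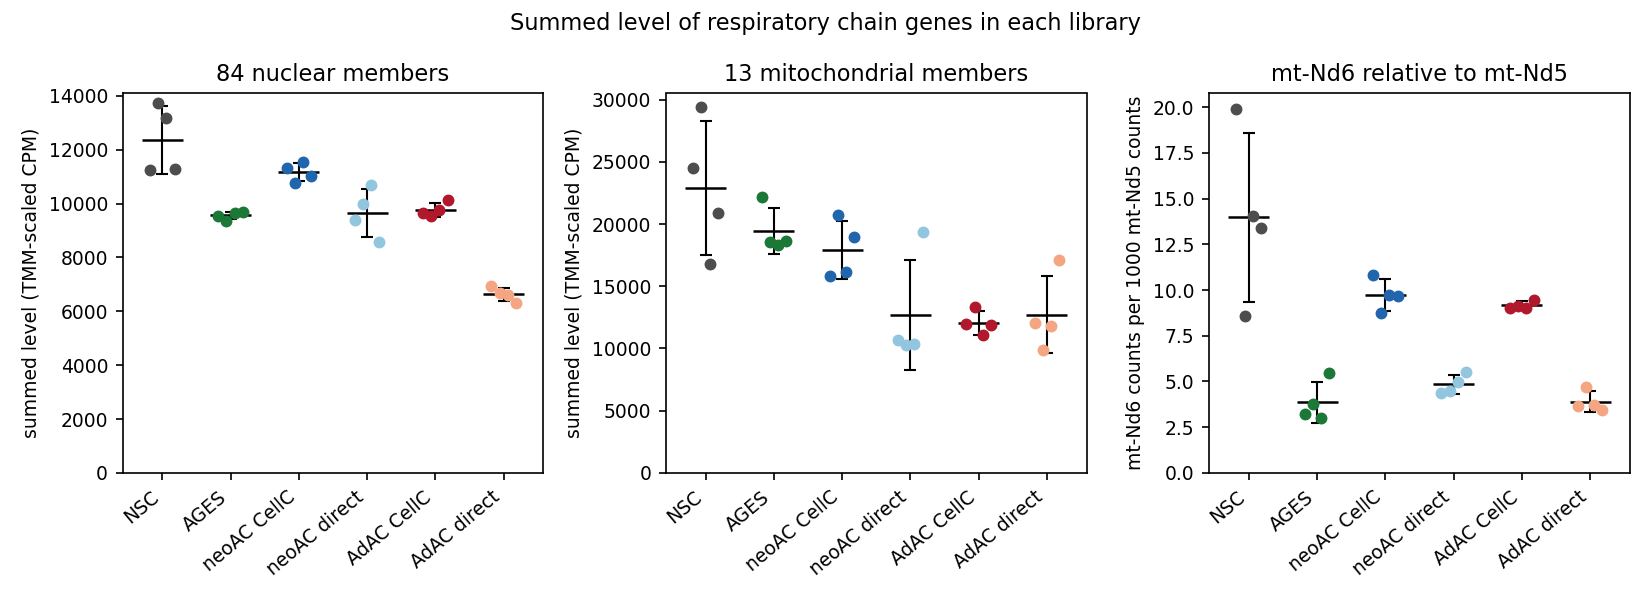
Summed level of the 84 nuclear and the 13 mitochondrial subunit genes in TMM-scaled CPM, and mt-Nd6 counts per 1000 mt-Nd5 counts, with 1 dot per library, a line at the mean and bars of 1 SD over 4 libraries. The nuclear sum of AdAC direct lies below every other library, neoAC direct 4 and AdAC direct 4 stand above their groups in the mitochondrial sum, and the mt-Nd6 ratio of both cultured primary groups lies above that of both directly isolated groups.

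Per kilobase of mRNA, Atp5b, the catalytic beta subunit of the ATP synthase, was the most abundant nuclear subunit in 5 of the 6 groups, with 647 ± 72.9 RPKM in NSC and 325 ± 7.37 in AdAC direct. RPKM is the CPM divided by the length of the mRNA in kilobases. AGES were the exception, where Cox4i1, the widespread form of subunit 4 of complex IV, came first with 542 ± 29.2 RPKM, followed by Cox6c (480.1 ± 39.8) and Cox6b1 (479.6 ± 25.2). mt-Co1, the catalytic subunit of complex IV, and mt-Cytb, the cytochrome b of complex III, were the most abundant mitochondrial genes in every group, with 3634 ± 1003 and 2847 ± 614 RPKM in AdAC direct.

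Of the comparisons fitted here, culturing adult astrocytes (AdAC CellC against AdAC direct) had the largest median log2 fold change of the nuclear subunits. Of the 82 nuclear subunits tested, 60 were higher and 3 lower after culture, with a median log2 fold change of 0.63 against 0.00 over all genes. Over all genes tested, 38.8% were called higher and 39.2% lower in this comparison. Higher members were 23 of 35 in complex I, 3 of 4 in complex II, 5 of 8 in complex III, 15 of 18 in complex IV and 14 of 17 in complex V, and the medians were 0.34, 0.45, 0.69, 0.81 and 0.72. The 3 lower members were Ndufs7, Cox4i2 and Atp5s, and the other 19 lay between -0.48 and 0.94 without a call. Without the filter on low counts 6 were lower. For 68 of the 82 the 4 cultured and the 4 direct libraries did not overlap, as for 76.3% of all genes. Of the 13 mitochondrial genes, 2 were higher and 2 lower, with a median of -0.27. The lower ones were mt-Atp6 (-0.999 ± 0.40, adjusted p = 0.0263) and mt-Co2 (-0.73 ± 0.30, adjusted p = 0.0295), and leaving out AdAC CellC 2, 3 or 4 or AdAC direct 1, 2 or 4 left 0 or 1 called lower, with both log2 fold changes still negative. Each shares 99.5% of its 100-base windows with other annotated genes, copies on chromosome 1. Of the 7 genes with under 50% shared windows, 2 were higher and 0 lower, with a median of 0.10. A fit of the 2 groups alone called 4 lower. Leaving out AdAC direct 4 together with neoAC direct 4 gave 3 higher and 4 lower. The sums of the oligodendrocyte and the astrocyte markers, given above, were lower in AdAC CellC than in AdAC direct, though Mbp (1821 to 4579 against 4104 to 4759.8 CPM) and Gfap (126 to 259.8 against 160.5 to 175) overlapped. The 4 ependymal markers summed to 225 to 323 CPM in AdAC CellC and 891 to 1023 in AdAC direct. Other sums stood higher after culture, with 1663 to 2001 against 295 to 326 CPM for the 4 neural stem cell markers (mostly Nes) and 170.0 to 244 against 48.3 to 60.6 for the 8 neuron markers (mostly Tubb3 and Stmn2). Mural markers were at 854 to 1016 against 289 to 313 CPM and microglia markers at 32.2 to 52.4 against 20.1 to 31.8. Oligodendrocyte precursor markers were at 356 to 592 against 1071 to 1293 CPM and endothelial markers at 39 to 53 against 67.1 to 71.2. Erythrocyte markers were at most 0.0291 CPM after culture, against 1.73 to 1.84 before. The part of these markers in the changes was not tested.

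Complex I holds 7 nuclear core subunits, which carry the flavin and the iron-sulfur clusters (Ndufs1 and Ndufv1 among them), and accessory subunits around them. On adult culture, 2 core subunits were higher and 1 was lower (median 0.09), whereas 21 of 28 accessory subunits were higher and none lower (median 0.47). The mRNAs of the core subunits run from 870 (Ndufs7) to 2625 bases (Ndufs1), those of the accessory ones from 382 (Ndufa6) to 2413 (Ndufb2). Short mRNAs had higher medians on culture, as given below, and the part of length in this contrast was not tested. Ndufa1 (ENSMUSG00000016427, chrX:37187588-37191163), an X-linked accessory subunit needed for assembly of the complex, was at 15.7, 14.5, 14.1 and 16 CPM in AdAC direct and at 43.5, 41.8, 41.9 and 41.8 in AdAC CellC. Every cultured library lay above every direct one, and the log2 fold change was 1.48 ± 0.09, adjusted p = 3.61e-14. The membrane-arm subunit Ndufb6 (ENSMUSG00000071014, chr4:40270591-40279421) was at 23.6, 25.5, 23.9 and 23.8 CPM before and 65.2, 66.1, 68.4 and 63.6 after culture, again with no overlap (log2 fold change 1.44 ± 0.08, adjusted p = 2.16e-14). The exons of Ndufb6 overlap Smim27 on the other strand, and reads of the 2 genes cannot be told apart if strand was ignored in counting. Such an overlap held for 26 of the 84 nuclear members. Among them were Atp5a1 (with Haus1), Ndufs1 (Ino80dos and Eef1b2), Ndufs3 (Kbtbd4) and Uqcrc2 (Pdzd9). The core subunit Ndufs7 (ENSMUSG00000020153, chr10:80249121-80256794), which holds the last iron-sulfur cluster before ubiquinone, went the other way, from 81.9, 92.7, 84.4 and 72.2 to 64.8, 60.1, 66.9 and 70.9 CPM. These 2 groups did not overlap, and the log2 fold change was -0.33 ± 0.13, adjusted p = 0.0241.

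In complex II, Sdhd, a membrane anchor of the enzyme, was at 60.6, 56.9, 58.5 and 62 CPM in AdAC direct and 102, 97.8, 96.2 and 106 in AdAC CellC. The groups stood apart with a log2 fold change of 0.76 ± 0.08, adjusted p = 2.03e-09. The catalytic flavoprotein Sdha, at 287 ± 6.89 and 264 ± 8.52 CPM, was not called (-0.12 ± 0.06, adjusted p = 0.0596). In complex III, Uqcrq (ENSMUSG00000044894, chr11:53427922-53430831), a small subunit, was at 50.3, 58.1, 53.3 and 40.3 CPM before and 156, 137, 149.6 and 147 after culture. All 4 cultured libraries exceeded all 4 direct ones (log2 fold change 1.54 ± 0.13, adjusted p = 3.54e-11). The 2 large core proteins Uqcrc1 (0.14 ± 0.10, adjusted p = 0.21) and Uqcrc2 (-0.11 ± 0.08, adjusted p = 0.211) were not called.

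In complex IV, Cox6b1 (ENSMUSG00000036751, chr7:30616861-30626151), which faces the intermembrane space, rose from 95.7, 86.9, 88.2 and 77.9 CPM in AdAC direct to 173, 166, 176 and 171 in AdAC CellC. The lowest cultured library was well above the highest direct one (log2 fold change 0.98 ± 0.11, adjusted p = 2.58e-08). Cox7a2l, a relative of subunit 7a known for joining complexes III and IV into supercomplexes, was at 47.8, 46.1, 48.9 and 49.3 CPM before and 105, 102, 105 and 103 after culture. Its libraries lay close together within each group and did not overlap between them (log2 fold change 1.11 ± 0.08, adjusted p = 1.57e-12). Cox5a, a subunit on the matrix side, was at 68, 66.3, 63.5 and 61.3 CPM against 119.5, 112, 114 and 125 (log2 fold change 0.86 ± 0.07, adjusted p = 3.95e-11), and its exons overlap Gm26631 on the other strand. In complex V, Atp5b (ENSMUSG00000025393, chr10:128083273-128090391) went from 638, 625, 621 and 604 to 1144, 1124, 1133 and 1212 CPM. Its groups were separated by a wide gap (log2 fold change 0.89 ± 0.08, adjusted p = 4.20e-10). Atp5g1, 1 of 3 genes for the same c-ring protein of the proton channel, was at 48.2, 49.8, 46.4 and 43.2 CPM against 119.9, 108, 116 and 112, with a log2 fold change of 1.28 ± 0.12, adjusted p = 3.50e-10. The other 2 genes of this protein were higher as well, Atp5g2 at 0.94 ± 0.10, adjusted p = 3.68e-09, and Atp5g3 at 0.88 ± 0.08, adjusted p = 3.26e-10. Of the lower members, Atp5s, named as factor B of the ATP synthase, went from 10.3, 10.2, 10.6 and 11.5 to 6.97, 8.19, 8.44 and 7.94 CPM (log2 fold change -0.43 ± 0.12, adjusted p = 0.00224).

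Culturing neonatal astrocytes (neoAC CellC against neoAC direct) was followed by higher levels of many nuclear subunits as well, with a smaller median. Of 82 tested, 51 were higher and 3 lower, with a median log2 fold change of 0.29 against 0.04 over all genes, of which 34.4% were called higher and 31.3% lower. Higher members were 21 of 35 in complex I, 4 of 4 in complex II, 5 of 8 in complex III, 10 of 18 in complex IV and 11 of 17 in complex V, with medians of 0.31, 0.20, 0.27, 0.39 and 0.27. The 3 lower ones were Uqcrfs1, the Rieske iron-sulfur protein of complex III (-0.25 ± 0.09, adjusted p = 0.0167), Cox4i2 and Ndufa4l2, and the 28 without a call lay between -0.22 and 0.87. In complex I, 2 of 7 core subunits were higher (median -0.07) and 19 of 28 accessory subunits (median 0.36), with none lower in either class. The mitochondrial genes stood at 5 higher and 2 lower of 13 (median 0.35). The lower ones, mt-Co3 and mt-Atp6, are again among those nearly wholly shared with chromosome 1, and of the 7 genes with under 50% shared windows 4 were higher and 0 lower (median 0.47). Without neoAC direct 4 the direction of mt-Atp6 was reversed, as given under the processing below. Without neoAC direct 4 and AdAC direct 4, the counts were 43 higher and 6 lower for the nuclear subunits and 9 higher and 0 lower for the mitochondrial genes. Without the filter 6 nuclear subunits were lower, and with 10 counts required of each library 0. The ependymal markers stood at 127 to 195 CPM in neoAC direct and 1474 to 1873 in neoAC CellC, and the neural stem cell markers at 5714 to 7446 and 1603 to 2422. The endothelial markers went from 64.4 to 261 to 3.88 to 6.63 CPM, the erythrocyte markers from 7.27 to 54.7 to at most 0.0312, the microglia markers from 15.1 to 82.1 to 5.6 to 11.1 and the neuron markers from 45.2 to 56.9 to 76.4 to 81.8. The sum of the astrocyte markers, given above, was lower after culture, but Gfap was higher (2575 to 3142 against 1546 to 1866 CPM) and S100b overlapped (81.1 to 96.1 against 70.2 to 95), and the part of these markers in the changes was not tested.

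Ndufa1 was at 36.4, 41.4, 45.6 and 38.5 CPM in neoAC direct and 56.6, 70.9, 68.2 and 66.6 in neoAC CellC. These ranges did not overlap (log2 fold change 0.70 ± 0.08, adjusted p = 5.17e-08). Among nuclear subunits of complex I, Ndufc1 had the highest log2 fold change (1.00 ± 0.08, adjusted p = 3.42e-11). For Ndufb6 the values were 37.5, 41.7, 40.9 and 37.6 CPM before and 57.4, 48.3, 52.1 and 49.9 after culture (log2 fold change 0.40 ± 0.08, adjusted p = 1.01e-04), a separated but smaller step than in adult cells. Ndufb10, an accessory subunit of the membrane arm, went from 68.4, 77.2, 76.1 and 59.1 to 115, 116, 131 and 117 CPM, with all cultured libraries above the direct ones (log2 fold change 0.77 ± 0.10, adjusted p = 1.21e-07). In adult cells it stood at 101, 92.3, 87.7 and 79.3 and 92.1, 92.3, 96.2 and 98.6 CPM before and after culture, which overlapped (0.07 ± 0.10, adjusted p = 0.482). Uqcrq was at 100.0, 113, 120.1 and 71.5 CPM in neoAC direct, where replicate 4 was the lowest, and at 167, 138, 152 and 143 in neoAC CellC (log2 fold change 0.57 ± 0.12, adjusted p = 2.72e-04). Cox6b1, by contrast, spread over 156, 246, 268 and 219.7 CPM in neoAC direct and 179.7, 187, 196 and 227 in neoAC CellC, and these groups overlapped (-0.17 ± 0.11, adjusted p = 0.188). Cox7a2l did not separate either, at 109.8, 100.4, 114 and 88.1 CPM before and 103, 99.1, 105 and 106 after culture (0.00 ± 0.08, adjusted p = 0.962). Atp5b, with 1119, 1129, 1235 and 944 and 1263, 1136, 1241 and 1212 CPM, was not called (0.13 ± 0.08, adjusted p = 0.165). Atp5g1 was the subunit of complex V with the highest log2 fold change, from 54.4, 64.6, 67.6 and 41.7 to 122, 99.6, 116 and 103 CPM (0.95 ± 0.12, adjusted p = 1.17e-07), and again neoAC direct 4 was the lowest library. Atp5s went from 7.83, 9.02, 9.07 and 11.1 to 13.7, 13.5, 14.2 and 13.2 CPM (0.56 ± 0.12, adjusted p = 2.24e-04), opposite to its direction in adult cells.

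**Figure D2:**
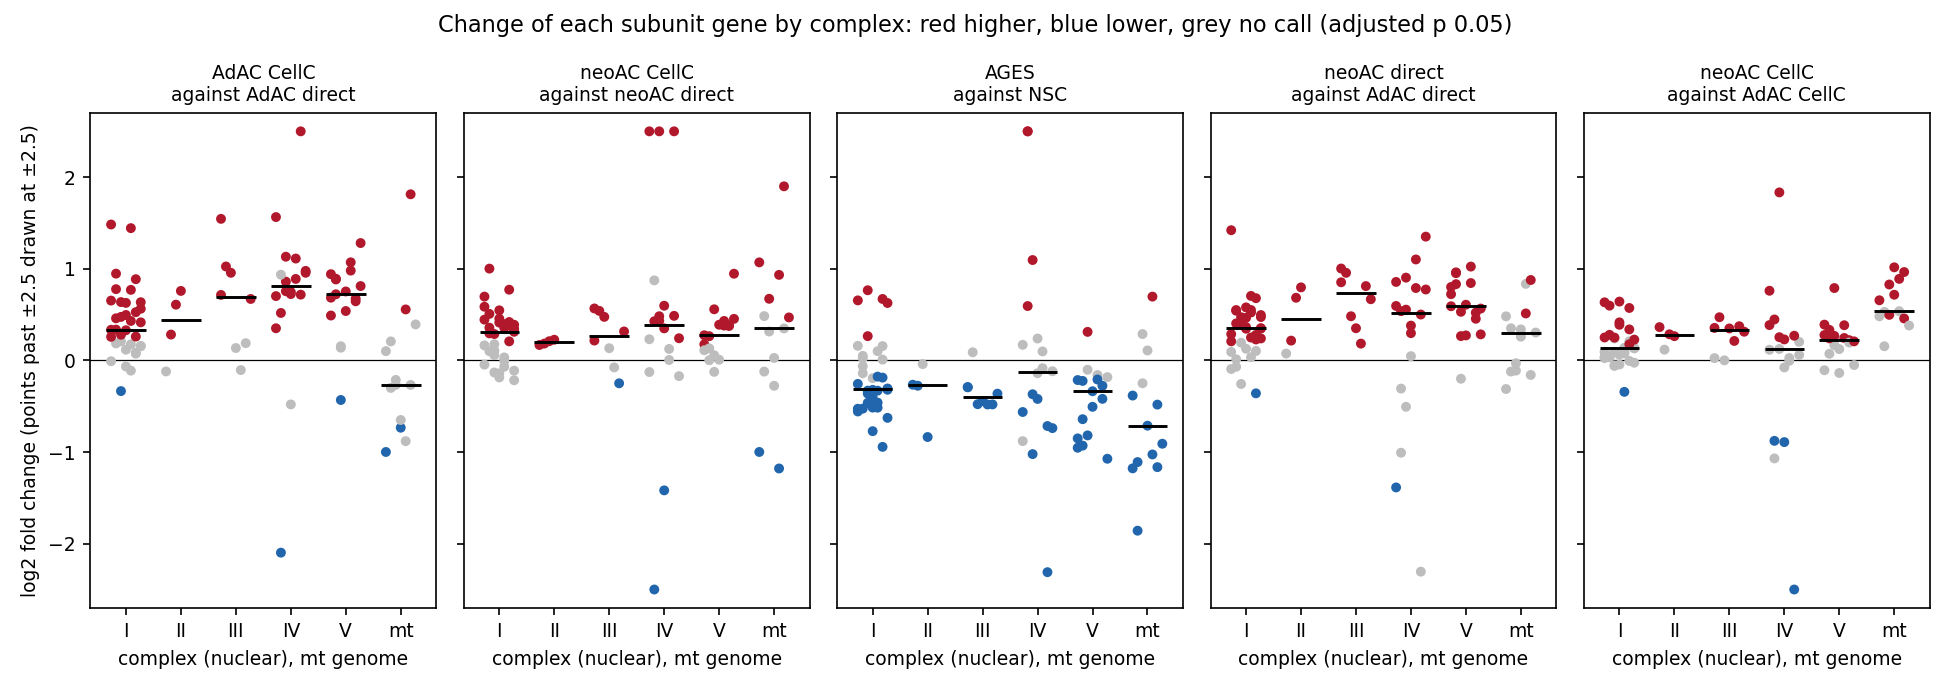
Log2 fold change of each tested subunit gene in 5 comparisons (vertical axis; points past ±2.5 are drawn at ±2.5), by nuclear complex and for the mitochondrial genome (mt), with red for higher, blue for lower and grey for no call at an adjusted p of 0.05 and a line at the median. Nuclear medians lie above 0 in both culture comparisons and in both neonatal against adult comparisons and below 0 in AGES against NSC.

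Whether the change on culture differed between adult and neonatal cells was tested as an interaction in the same fit. It was positive, that is larger in adult cells, for 38 of the 82 nuclear subunits and negative for 7 (median 0.29 against 0.05 over all genes), where 35.4% of all genes were called positive and 33.2% negative, 68.6% together. With scaling by library size alone the positive calls came to 24, and when each library had to hold 10 counts or more to 20. The shares of all genes under these 2 settings were not counted. Among positive members were Cox6b1 (1.15 ± 0.16, adjusted p = 7.55e-07), Cox7a2l (1.11 ± 0.11, adjusted p = 1.88e-09) and Ndufb6 (1.05 ± 0.11, adjusted p = 9.68e-09). Uqcrq (0.98 ± 0.18, adjusted p = 2.51e-05), Ndufa1 (0.79 ± 0.12, adjusted p = 2.01e-06) and Atp5b (0.76 ± 0.12, adjusted p = 3.13e-06) were positive too. The negative members included Cox7a1 (-2.34 ± 0.33, adjusted p = 9.46e-07), Cox6b2 (-2.15 ± 0.21, adjusted p = 1.62e-09), Atp5s (-0.99 ± 0.17, adjusted p = 1.42e-05) and Ndufb10 (-0.70 ± 0.14, adjusted p = 6.66e-05). Of the mitochondrial genes, 0 were positive and 3 negative, and 10 were negative without neoAC direct 4 and AdAC direct 4.

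**Figure D3:**
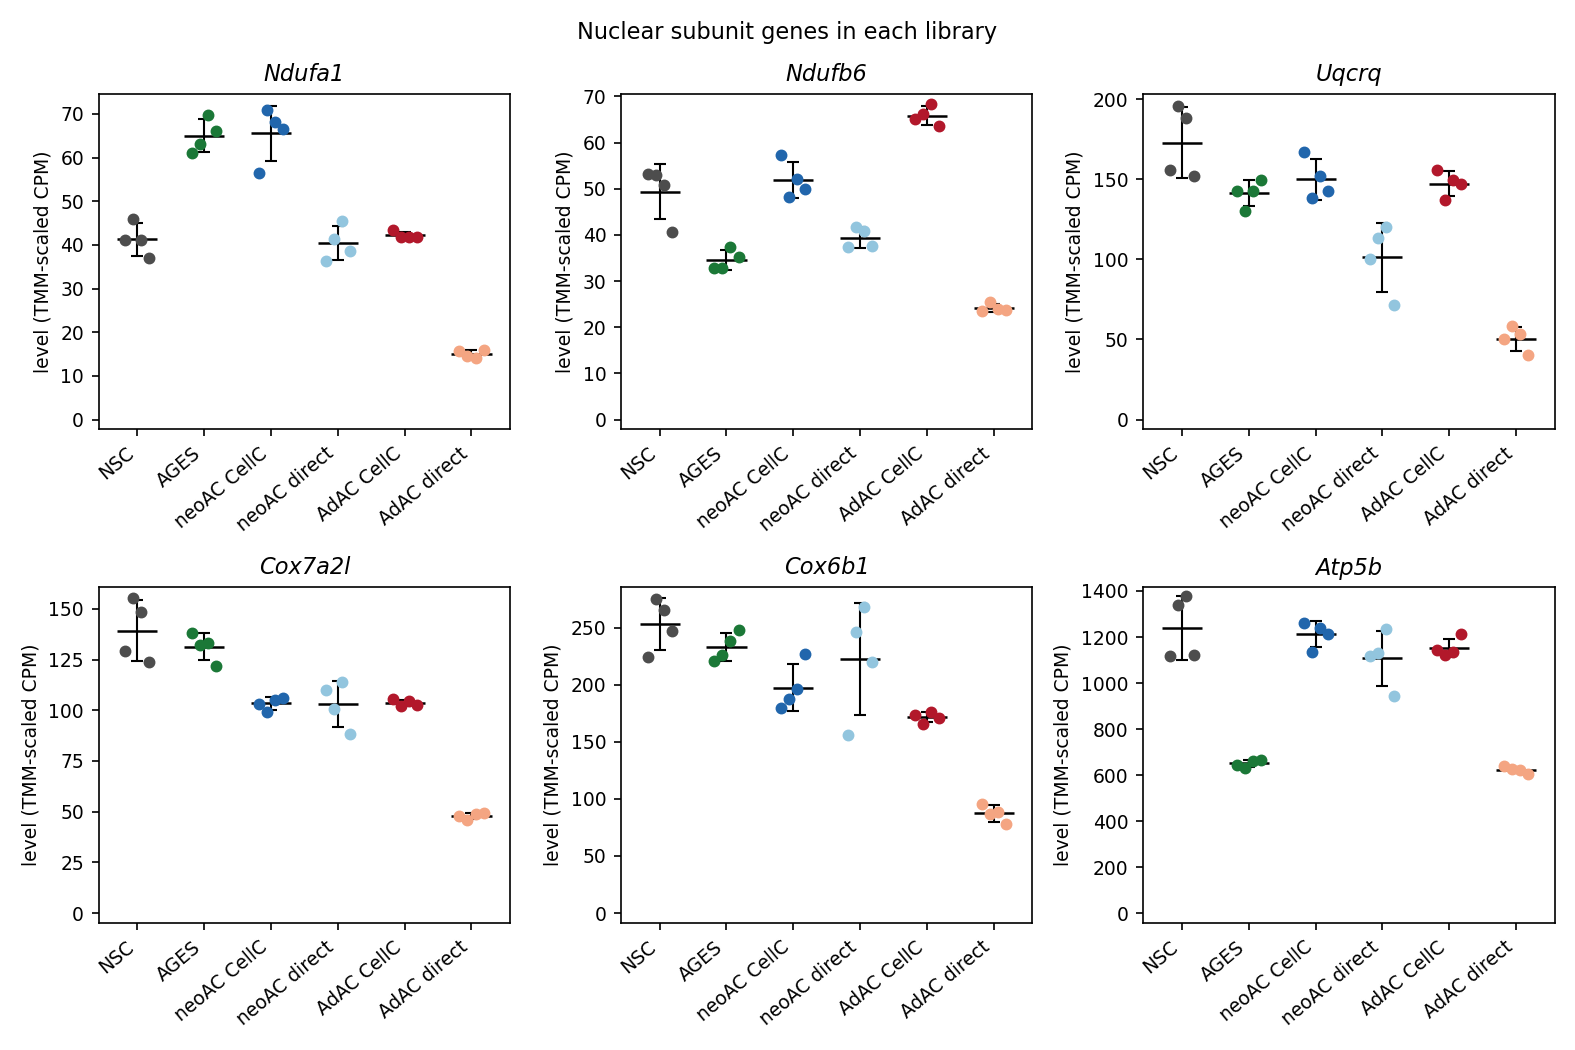
Levels of 6 nuclear subunit genes in TMM-scaled CPM by group, with 1 dot per library, a line at the mean and bars of 1 SD over 4 libraries. AdAC direct has the lowest mean in all 6 panels, though its Atp5b range overlaps that of AGES, and for Cox7a2l, Cox6b1 and Atp5b the neonatal groups overlap each other while the adult groups do not.

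Among directly isolated cells, neonatal astrocytes held more of the nuclear subunits than adult ones. In neoAC direct against AdAC direct, 64 of 82 were higher and 2 lower (median 0.47 against 0.00 over all genes), beside 35.0% and 36.4% of all genes. Higher members were 25 of 35 in complex I, 3 of 4 in complex II, 8 of 8 in complex III, 12 of 18 in complex IV and 16 of 17 in complex V. Of members of at least 10 CPM, those with the 3 highest log2 fold changes were Ndufa1 (1.42 ± 0.09, adjusted p = 1.29e-13), Cox6b1 (1.35 ± 0.12, adjusted p = 1.16e-10) and Cox7a2l (1.10 ± 0.08, adjusted p = 2.78e-12). In the libraries listed above, all 4 neonatal ones lay above all 4 adult ones for each of these. The 16 without a call lay between -2.31 and 0.19, and the 2 lower members were Cox6b2 (-1.39 ± 0.15, adjusted p = 1.51e-08) and Ndufb10 (-0.36 ± 0.10, adjusted p = 0.00172). The oligodendrocyte markers were near 328 CPM in neoAC direct and near 28264 in AdAC direct. The neural stem cell markers (mostly Fabp7 in neonatal cells) were near 6539 and 309.7 CPM and the ependymal markers near 152 and 949.9. The astrocyte sum, given above, was higher in neoAC direct, with Gfap at 1546 to 1866 CPM against 160 to 175 in AdAC direct. Aqp4, Slc1a3 and Aldh1l1 were higher there too. Lower in neoAC direct were S100b (70.2 to 95 against 243 to 272 CPM) and Atp1b2 (1712 to 2005 against 2131 to 2368). Aldoc, Slc1a2 and Gja1 overlapped between the groups. Erythrocyte markers were at 7.27 to 54.7 and 1.73 to 1.84 CPM. The part of these lists in the difference was not tested. Of the mitochondrial genes, 2 were higher and 0 lower, without neoAC direct 4 and AdAC direct 4 the counts were 2 and 4, and without neoAC direct 4 alone 1 and 5. Without neoAC direct 2 or 3, 4 nuclear subunits were lower.

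Between the cultured groups (neoAC CellC against AdAC CellC), 38 of 82 nuclear subunits were higher in neonatal cells and 4 lower (median 0.20 against -0.08 over all genes), with 28.5% and 35.2% of all genes called. Oligodendrocyte and astrocyte markers differed between these groups too, as given above. In neoAC CellC and AdAC CellC the ependymal markers summed to 1474 to 1873 and 225 to 323 CPM, those of neurons to 76.4 to 81.8 and 170.0 to 244, of mural cells to 302 to 662 and 854 to 1016, of endothelial cells to 3.88 to 6.63 and 39 to 53 and of microglia to 5.6 to 11.1 and 32.2 to 52.4, and the part of these lists was not tested. A fit of these 2 groups alone called 58 higher, and the share of all genes called in that fit was not counted. Higher members were 12 of 35 in complex I, 3 of 4 in complex II, 6 of 8 in complex III, 7 of 18 in complex IV and 10 of 17 in complex V. The 4 lower ones were Ndufb6 (-0.34 ± 0.08, adjusted p = 4.93e-04), Cox4i2 (-0.88 ± 0.36, adjusted p = 0.0352), Ndufa4l2 (-0.89 ± 0.33, adjusted p = 0.0226) and Cox6a2 (-3.18 ± 0.38, adjusted p = 7.29e-08). Of the mitochondrial genes, 8 of 13 were higher and 0 lower (median 0.54); without neoAC CellC 2 there were 5 higher, and without AdAC CellC 1 there were 2 nuclear subunits lower.

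The comparison of AGES with NSC, in which BMP4, the loss of FGF and EGF and the coating cannot be told apart, went the other way. Of 82 nuclear subunits, 51 were lower and 10 higher in AGES (median -0.30 against 0.00 over all genes), where 34.0% of all genes were called lower and 31.7% higher. With a block for the replicate number in a fit of these 2 groups, 33 were lower, and the share of all genes was not counted there. The 5 markers of oligodendrocyte precursors summed to 1799 to 2148 CPM in NSC and 263 to 359 in AGES and the 4 of neural stem cells to 2138 to 2738 and 1126 to 1513, and their part was not tested. Lower members were 21 of 35 in complex I, 3 of 4 in complex II, 7 of 8 in complex III, 7 of 18 in complex IV and 13 of 17 in complex V, with medians of -0.31, -0.27, -0.40, -0.13 and -0.34. The core subunits of complex I had a median of -0.33, and of the 28 accessory subunits 14 were lower and 5 higher. The mitochondrial genes had 9 lower and 1 higher of 13 (median -0.71), with 5 lower without NSC 2 and 8 without AGES 1, and 5 lower without the filter.

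Atp5b was at 1117, 1340.0, 1378 and 1120.3 CPM in NSC and 643, 633, 661 and 665 in AGES. The AGES libraries agreed closely, and none reached the lowest NSC library (log2 fold change -0.93 ± 0.08, adjusted p = 2.37e-10). Atp5g1 went from 137, 151, 190.1 and 134 to 72.5, 67.8, 72.7 and 78.1 CPM (-1.07 ± 0.12, adjusted p = 9.50e-09). Cox5a went from 139, 184, 154 and 152 to 75.2, 76.2, 77.7 and 81.3 CPM (-1.02 ± 0.07, adjusted p = 1.77e-12), and Sdhd from 145, 177, 172 and 134 to 88.3, 85, 95.1 and 83.3 CPM (-0.84 ± 0.08, adjusted p = 3.90e-10). For each of the 3 genes no AGES library reached an NSC library. A few accessory subunits rose in AGES. Ndufa11, of the membrane arm, was at 46.4, 56, 54.6 and 48.3 CPM in NSC and 92.2, 82.9, 83.4 and 90.6 in AGES (0.77 ± 0.11, adjusted p = 6.79e-07). Ndufb10 was at 67, 78, 88.8 and 70.0 and 139, 112, 118 and 115 CPM (0.67 ± 0.10, adjusted p = 8.56e-07). Both were separated between the groups, and exons of Ndufa11 overlap Vmac on the other strand. Ndufa1 rose too, from 41.2, 46, 41.1 and 36.9 CPM in NSC to 61, 63.1, 69.8 and 66.1 in AGES (0.65 ± 0.08, adjusted p = 1.05e-07). The same held for Cox6c of complex IV, with 198, 178, 209 and 186 and 277, 281, 327 and 279 CPM (0.59 ± 0.07, adjusted p = 1.34e-08), which overlaps Vps13b on the other strand.

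The redox core of complex I is set out for the same comparisons because its medians on culture lay below those of the accessory subunits. Its mRNAs are longer than those of many accessory subunits, and the part of length was not tested. Ndufv1, which binds the flavin, was at 123, 129, 122 and 112 CPM in AdAC direct and 113, 109, 114 and 116 in AdAC CellC. It was at 127, 136, 144 and 92.9 CPM in neoAC direct and 129, 108, 128 and 112 in neoAC CellC. The ranges overlapped at both ages, and no change was called (-0.11 ± 0.10, adjusted p = 0.328 and -0.07 ± 0.10, adjusted p = 0.577). The large iron-sulfur subunit Ndufs1 was not called on culture either (-0.07 ± 0.07, adjusted p = 0.399 and -0.14 ± 0.07, adjusted p = 0.081), but it was higher in neoAC direct than in AdAC direct (0.46 ± 0.07, adjusted p = 2.34e-06). Ndufs8, another iron-sulfur subunit, was at 57.4, 54.7, 52.7 and 51.1 CPM in AdAC direct and 67.7, 62.7, 69.7 and 71.1 in AdAC CellC. It rose in adult cells (0.33 ± 0.09, adjusted p = 0.0014) and was not called in neonatal ones (-0.19 ± 0.09, adjusted p = 0.0627), with an interaction of 0.52 ± 0.12, adjusted p = 6.65e-04. Ndufs3 had the reverse split, without a call in adult (0.09 ± 0.08, adjusted p = 0.333) and with a rise in neonatal cells (0.38 ± 0.08, adjusted p = 1.88e-04). Its interaction (-0.29 ± 0.11, adjusted p = 0.0244) was not called without neoAC direct 4 and AdAC direct 4 (-0.21, adjusted p = 0.101). In AGES against NSC both Ndufs3 (-0.19 ± 0.08, adjusted p = 0.0427) and Ndufv2 (-0.94 ± 0.07, adjusted p = 1.81e-11) fell. Ndufv2 was at 128, 149.5, 155 and 140.2 CPM in NSC and 73.8, 74, 77.8 and 72.3 in AGES without overlap.

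Of the large catalytic and core subunits of the other complexes, several were lower in AGES and without a call on adult culture. Sdha, at 325, 356, 359 and 332 CPM in NSC and 289, 292, 284 and 277 in AGES, fell there (-0.26 ± 0.06, adjusted p = 2.33e-04). Uqcrc1 (-0.44 ± 0.10, adjusted p = 3.06e-04) and Uqcrc2 (-0.48 ± 0.08, adjusted p = 4.55e-06) did as well. The alpha subunit of the ATP synthase, Atp5a1, differed from these in that it changed in both. It was at 905, 1086, 1066 and 851 CPM in NSC and 554, 533, 533 and 548 in AGES (-0.85 ± 0.08, adjusted p = 3.33e-10). It was at 479, 464, 476 and 492 CPM in AdAC direct and 639, 668, 656 and 720.2 in AdAC CellC (0.49 ± 0.08, adjusted p = 2.96e-06). Neither pair of groups overlapped. Atp5a1 also rose on neonatal culture (0.18 ± 0.08, adjusted p = 0.0482), a call that was lost without neoAC direct 4 and AdAC direct 4 (0.13, adjusted p = 0.149).

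Against cultured primary astrocytes, the count of higher and lower nuclear subunits in AGES depended on the scaling. Against AdAC CellC, 26 of 82 were higher and 22 lower (median 0.05 against -0.23 over all genes, with 31.0% of all genes called higher and 45.2% lower). Scaling by library size alone gave 9 higher and 38 lower in this comparison, and a fit of the 2 groups alone gave 43 higher. The shares of all genes called under these and the other settings of this paragraph were not counted. Without the filter on low counts 12 were lower. Against neoAC CellC, 12 were higher and 36 lower (median -0.17 against -0.07, with 34.1% and 40.5% of all genes). Here library size alone gave 2 and 66, and 10 counts required of each library left 6 higher. That scaling moved the median of all genes from -0.23 to -0.44 against AdAC CellC and from -0.07 to -0.37 against neoAC CellC. Among members of at least 10 CPM, Cox6c had the highest log2 fold change in both, as counted without processed copies, at 277, 281, 327 and 279 CPM in AGES, 134, 136, 138 and 141 in AdAC CellC and 181, 191, 192 and 186 in neoAC CellC. All AGES libraries exceeded all libraries of both cultured groups (log2 fold changes 1.08 ± 0.07, adjusted p = 1.12e-13 and 0.64 ± 0.07, adjusted p = 3.37e-09). Atp5b lay on the other side, with log2 fold changes of -0.83 ± 0.08, adjusted p = 1.66e-09 and -0.90 ± 0.08, adjusted p = 3.87e-10 from the libraries listed above, and no overlap. The mitochondrial genes were 9 higher and 0 lower of 13 against AdAC CellC (median 0.74), and 1 higher and 1 lower against neoAC CellC (median 0.15). AGES held 23.1 to 43.3 CPM of the oligodendrocyte, 53.8 to 78.6 of the ependymal and 4.39 to 8.46 of the mural markers, all below the cultured groups. The neuron (27.5 to 54 CPM), endothelial (0.493 to 0.705) and microglia (0.312 to 0.801) sums were also below those groups and the astrocyte sum above them, and the part of these lists was not tested.

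For 3 members the comparison of stem cell-derived with primary cells was bound up with a near-identical processed copy elsewhere in the genome; these were picked out after their values were seen. Ndufs5 (ENSMUSG00000028648, chr4:123712710-123718202), an accessory subunit of complex I, was at 13, 14.8, 16.1 and 16.3 CPM in NSC and 16.2, 17.1, 16.6 and 17.3 in AGES, and at 31.9 to 51.9 CPM in the 16 primary libraries. Its annotated copy BC002163 (chr16:42955631-42955949) showed the opposite split, with 17.5 to 28.1 CPM in the 8 NSC and AGES libraries and 0.395 to 1.5 CPM in the primary ones. Gm15920 (chr5:130188395-130188796), a copy of the complex I subunit Ndufa12, was at 14 to 22.9 CPM in NSC and AGES and 0.169 to 0.883 in primary cells, and Gm6969 (chr12:24638669-24639010), a copy of Cox7a2l, at 40.8 to 48.6 and 0.31 to 0.664 CPM. No library of either kind crossed over for any of the 3 copies. The sequences below are shown because they are where each member and its copy differ; they come from Gencode vM21 transcripts of GRCm38, and capitals mark bases that differ or are extra.

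Ndufs5: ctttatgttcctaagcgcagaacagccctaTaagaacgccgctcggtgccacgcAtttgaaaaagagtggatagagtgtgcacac
BC002163: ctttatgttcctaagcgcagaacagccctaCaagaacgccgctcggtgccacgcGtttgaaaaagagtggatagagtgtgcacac
Cox7a2l: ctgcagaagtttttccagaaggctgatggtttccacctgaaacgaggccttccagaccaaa
Gm6969: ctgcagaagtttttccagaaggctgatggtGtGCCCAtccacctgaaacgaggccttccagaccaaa
Ndufa12: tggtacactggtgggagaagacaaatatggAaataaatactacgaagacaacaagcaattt
Gm15920: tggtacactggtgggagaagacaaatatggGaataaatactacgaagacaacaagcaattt

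Over their whole length the copies differed from the transcripts by 2 of 319 aligned bases for BC002163, by 2 of 402 for Gm15920, and by 1 of 336 plus 6 extra bases for Gm6969. Where the sequenced RNA came from, the member or the copy, cannot be told apart from counts. The line is stated to come from C57Bl/6 N and the mice were C57BL/6 J, so that a difference of substrain or of the line in these sequences follows the same split and cannot be told apart from either. With the counts of the copy added to the member, an alternative chosen after seeing the data, the log2 fold change of Ndufs5 in AGES against AdAC CellC went from -1.40 ± 0.09, adjusted p = 3.63e-13, to -0.20 ± 0.09, adjusted p = 0.0534. That against neoAC CellC went from -1.49 ± 0.09, adjusted p = 1.06e-13, to -0.31 ± 0.09, adjusted p = 0.0048. For Cox7a2l in AGES against AdAC CellC it went from 0.34 ± 0.08, adjusted p = 2.78e-04, to 0.76 ± 0.07, adjusted p = 1.09e-09. Against neoAC CellC it went from 0.34 ± 0.08, adjusted p = 2.48e-04, to 0.76 ± 0.07, adjusted p = 1.05e-09, above the 0.64 of Cox6c in that comparison. For Ndufa12 it went from -0.32 ± 0.09, adjusted p = 0.00384, to 0.08 ± 0.09, adjusted p = 0.434 against AdAC CellC. Against neoAC CellC it went from -0.73 ± 0.09, adjusted p = 1.46e-07, to -0.34 ± 0.09, adjusted p = 0.00196. In AGES against NSC, where both groups hold the copies, the log2 fold changes of the 3 members, of which that of Ndufa12 was called, were 0.16, -0.08 and -0.41 without and 0.09, -0.06 and -0.40 with the copy.

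The 13 mitochondrial genes are cut from long transcripts of both strands, so their counts share a source and were not independent. mt-Co1 took 38.9% of their counts, mt-Cytb 23.9%, mt-Nd5 12.2%, mt-Nd1 9.44%, mt-Nd2 7.98% and mt-Nd4 7.17%, whereas mt-Co2, mt-Co3, mt-Atp6, mt-Nd4l and mt-Nd3 held far fewer. In the libraries mt-Co2 had 289 to 1375 counts and mt-Co1 130959 to 372370. These 5 genes are the ones whose sequence recurs almost whole on chromosome 1. Of their 100-base windows, 99.9% (mt-Co3), 99.5% (mt-Co2), 99.5% (mt-Atp6), 98.5% (mt-Nd4l) and 97.6% (mt-Nd3) also occur in another annotated gene. The share was 60.8% for mt-Nd4, 30.8% for mt-Co1 and 0 for mt-Cytb, mt-Nd1 and mt-Nd5. A read that fits 2 places equally well may be dropped or split in counting, so the levels of these genes are uncertain, and values of single genes below are given for those with few shared windows and for mt-Co1. Scaling by library size alone turned the counts of higher and lower mitochondrial genes into 3 and 1 on adult culture and 7 and 1 on neonatal culture. It gave 2 and 1 in neoAC direct against AdAC direct and 0 and 1 in AGES against neoAC CellC. Of the 7 genes with under 50% shared windows, 1 was higher and 5 lower in AGES against NSC, 2 and 0 in neoAC direct against AdAC direct and 5 and 0 in neoAC CellC against AdAC CellC, with medians of -0.48, 0.30 and 0.53. AGES had 4 higher and 0 lower of these 7 against AdAC CellC (median 0.52) and 0 higher and 1 lower against neoAC CellC (median 0.02), and the interaction was negative for 2 and positive for 0. mt-Atp8, with 6 to 74 counts, shares none of its windows and was low too.

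The start of mt-Co2 (chrM:7013-7102) and of its copy Gm28661 (within chr1:24614885-24615565) show a gene and a copy that agree in all 681 aligned bases. The stretch of mt-Co1 (chrM:6390-6479) and Gm29216 (within chr1:24615706-24616197) show a pair that differs in 6 of 492, with the differing base in capitals (GRCm38, Gencode vM21 transcripts).
mt-Co2: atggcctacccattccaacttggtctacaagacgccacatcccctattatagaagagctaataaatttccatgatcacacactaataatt
Gm28661: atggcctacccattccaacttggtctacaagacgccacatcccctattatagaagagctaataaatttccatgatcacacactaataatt
mt-Co1: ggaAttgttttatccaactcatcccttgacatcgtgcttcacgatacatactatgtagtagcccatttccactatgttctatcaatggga
Gm29216: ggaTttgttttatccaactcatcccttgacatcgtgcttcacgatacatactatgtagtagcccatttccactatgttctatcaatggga

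mt-Nd5, a proton-pumping subunit of complex I, was at 957, 844, 907 and 1363 CPM in AdAC direct and 1507, 1699, 1352 and 1428 in AdAC CellC. AdAC direct 4 reached into the range of the cultured libraries, and the log2 fold change was 0.56 ± 0.17, adjusted p = 0.00551, or 0.74 without AdAC direct 4 and neoAC direct 4. In neonatal cells it was at 1325, 1168, 1179 and 2136 CPM before and 2414, 3269, 2496 and 2914 after culture, with all cultured libraries higher (0.93 ± 0.17, adjusted p = 4.62e-05, and 1.18 without both libraries). NSC held 2145, 2292, 1489.8 and 1982 CPM of it and AGES 3650.2, 3063, 3092 and 3009, and it was the 1 mitochondrial gene called higher in AGES (0.70 ± 0.17, adjusted p = 0.00102).

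mt-Nd1 and mt-Nd2, also of complex I, went down in AGES instead. mt-Nd1 was at 3197, 3693, 2198 and 2427 CPM in NSC and 1772, 1399.7, 1445 and 1515 in AGES, with no overlap (-0.91 ± 0.20, adjusted p = 2.51e-04). mt-Nd2 was at 2416, 2157, 1701 and 2079 and 1764, 1499, 1569.5 and 1572 CPM, which overlapped (-0.38 ± 0.16, adjusted p = 0.0333). On neonatal culture mt-Nd2 went from 604, 622, 620.2 and 1054 to 1383, 1748, 1345 and 1611 CPM (1.07 ± 0.16, adjusted p = 1.68e-06), and 1.31 without neoAC direct 4 and AdAC direct 4. On adult culture it was at 891, 733, 856 and 1119 and 1012, 1093, 825 and 932 CPM, which overlapped (0.10 ± 0.16, adjusted p = 0.557), and the interaction was called (-0.97 ± 0.22, adjusted p = 4.16e-04). mt-Cytb lay at 2497, 2309.8, 2430.1 and 4436 CPM in neoAC direct and 3282, 4337, 3369 and 3876 in neoAC CellC, where neoAC direct 4 was above all cultured libraries. It was at 3204, 2515, 3103 and 4207 and 2695, 2878, 2519 and 2730.0 CPM in AdAC direct and AdAC CellC. Neither change was called (0.35 ± 0.18, adjusted p = 0.0933 and -0.27 ± 0.18, adjusted p = 0.177), while their difference was (-0.62 ± 0.26, adjusted p = 0.0355). That call was lost without AdAC direct 4 (-0.46, adjusted p = 0.107) and without each of 8 other libraries. mt-Co1 was at 8953, 11300.0, 5552 and 7147 CPM in NSC and 8183, 6677, 6304 and 6558 in AGES, which overlapped (-0.25 ± 0.21, adjusted p = 0.308).

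mt-Nd6 is the only protein gene on the light strand of the mitochondrial genome, at chrM:13552-14070, and borders mt-Nd5 on the heavy strand. It was at 3.51, 3.98, 3.36 and 4.71 CPM in AdAC direct and 13.6, 15.5, 12.2 and 13.5 in AdAC CellC, and at 5.82, 5.26, 5.87 and 11.8 in neoAC direct and 26.1, 28.5, 24.2 and 28.2 in neoAC CellC. Cultured libraries lay above direct ones at both ages (log2 fold changes 1.81 ± 0.25, adjusted p = 4.31e-07 and 1.90 ± 0.24, adjusted p = 1.87e-07), and the interaction was not called (-0.09 ± 0.34, adjusted p = 0.837). In NSC it was at 42.7, 19.6, 20.9 and 26.6 CPM and in AGES at 11.7, 11.5, 9.29 and 16.5 (-1.16 ± 0.23, adjusted p = 9.19e-05). Relative to mt-Nd5, there were 14 ± 4.64 mt-Nd6 counts per 1000 mt-Nd5 counts in NSC, 9.72 ± 0.853 in neoAC CellC and 9.16 ± 0.211 in AdAC CellC. The ratio was 4.85 ± 0.512 in neoAC direct, 3.89 ± 0.567 in AdAC direct and 3.86 ± 1.12 in AGES. This ratio does not depend on scaling, and AdAC direct 4 was the lowest and neoAC direct 4 the highest library of its group in it, both below every cultured library. The libraries were made from polyadenylated RNA with a stranded kit, and the counting options listed in the methods include none for the strand. Reads of mt-Nd6 mRNA and of the opposite strand therefore cannot be told apart, nor can amount and length of the tail.

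**Figure D4:**
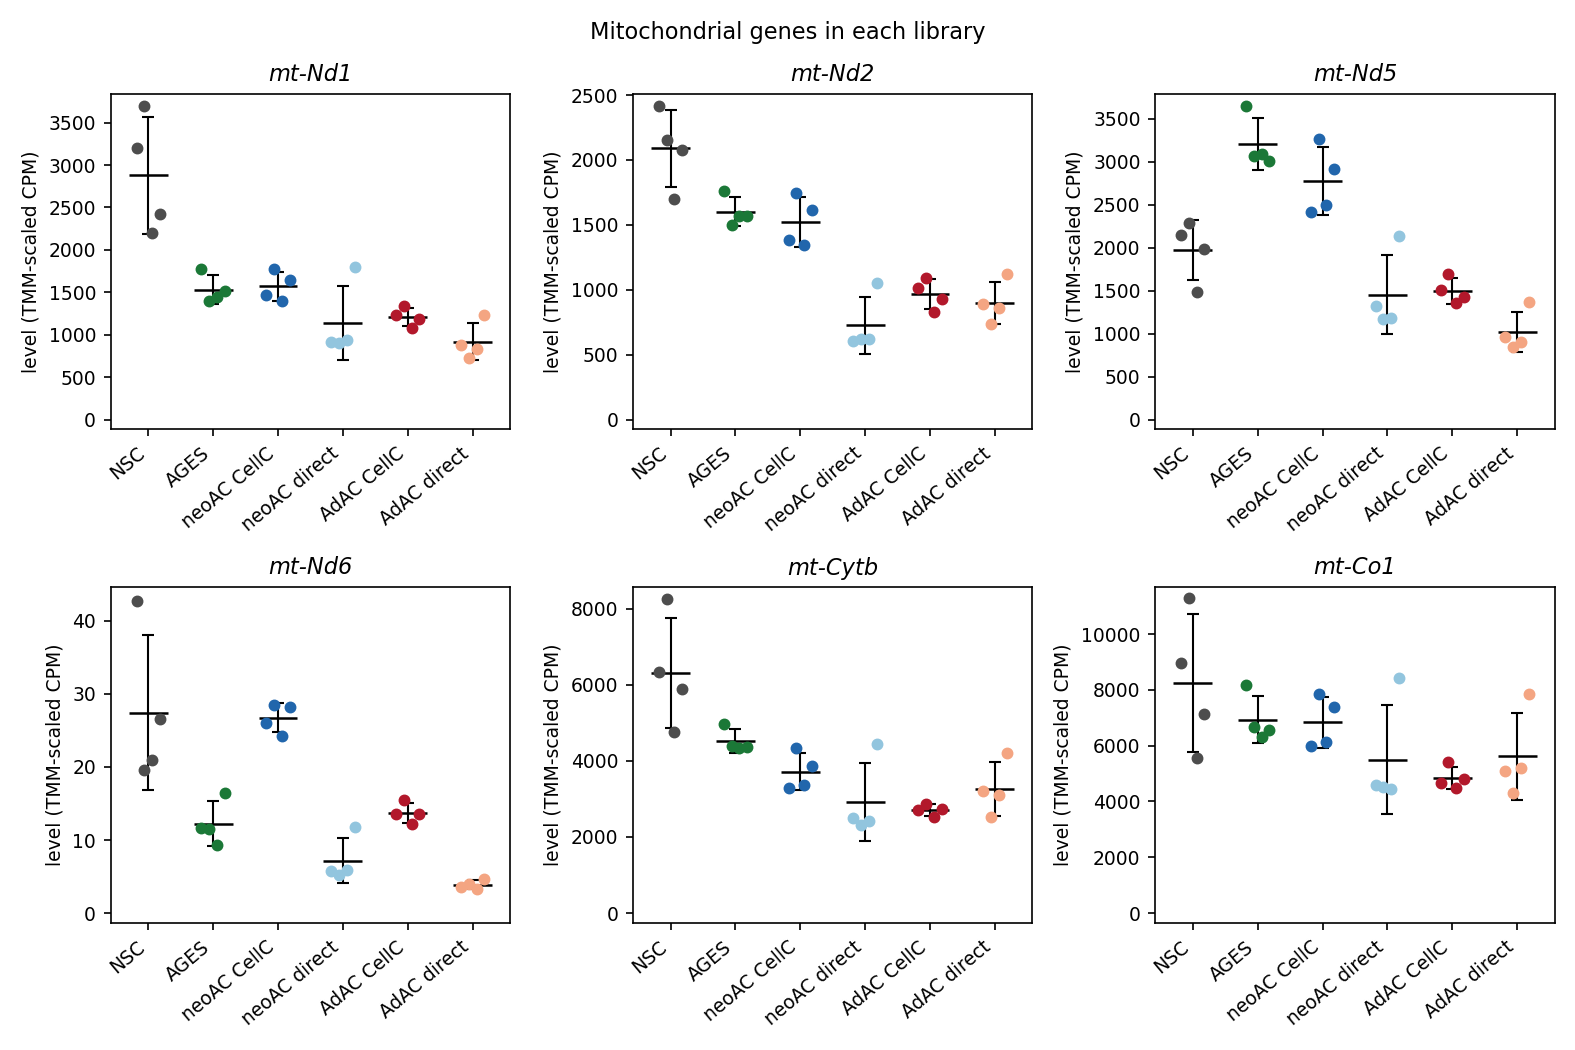
Levels of 6 mitochondrial genes in TMM-scaled CPM by group, with 1 dot per library, a line at the mean and bars of 1 SD over 4 libraries. neoAC direct 4 lies above the other 3 libraries of its group in all 6 panels. mt-Nd5 is higher in AGES than in NSC while mt-Nd1, mt-Nd2 and mt-Cytb are lower, and mt-Nd6 is higher in cultured than in directly isolated cells at each age.

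The restricted paralogs of complex IV gave the largest folds of the nuclear subunits. Cox6b2 (ENSMUSG00000051811, chr7:4751792-4753094), known as the testis form of subunit 6b, was at 4.84, 4.51, 6.08 and 4.06 CPM in neoAC direct and 54.8, 65.1, 68.7 and 66.3 in neoAC CellC. In adult cells it was at 12.8, 15.3, 12.6 and 10.2 CPM in AdAC direct and 29.5, 40.9, 42.2 and 38.1 in AdAC CellC. The 4 primary groups did not overlap one another, in the order neoAC direct, AdAC direct, AdAC CellC and neoAC CellC. Log2 fold changes on culture were 3.71 ± 0.16, adjusted p = 4.75e-16 in neonatal and 1.56 ± 0.15, adjusted p = 3.98e-10 in adult cells, and they differed from each other (-2.15 ± 0.21, adjusted p = 1.62e-09). NSC, at 0.196, 0.334, 0.0955 and 0.167 CPM, and AGES, at 0.156, 0.145, 0.0961 and 0.0329, rested on 1 to 11 counts per library, below every primary library. Per kilobase, Cox6b2 made up 26.5 ± 1.79% of Cox6b1 and Cox6b2 together in neoAC CellC, 19.6 ± 2.54% in AdAC CellC, 14 ± 1.72% in AdAC direct and 2.46 ± 0.635% in neoAC direct. The ependymal markers, given above, were also lowest in neoAC direct and highest in neoAC CellC of the 4 groups but higher in AdAC direct than in AdAC CellC, and their part was not tested.

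Cox7a1, the heart and muscle form of subunit 7a, was at 1.56, 2.21, 2.0 and 1.53 CPM in neoAC direct and 12, 16.1, 18.5 and 16 in neoAC CellC. In adult cells it was at 3.01, 2.47, 2.38 and 2.57 CPM in AdAC direct and 4.76, 3.58, 4.2 and 5.06 in AdAC CellC. neoAC CellC lay above all other groups (3.09 ± 0.24, adjusted p = 3.45e-11 on neonatal and 0.75 ± 0.23, adjusted p = 0.00515 on adult culture). Its share of Cox7a1 and Cox7a2 per kilobase was 16.3 ± 2.37% there and 3.33 ± 0.666% in neoAC direct, and 6.0 ± 0.592% in AdAC CellC beside 6.0 ± 0.19% in AdAC direct, which overlapped. The muscle form Cox6a2 was highest in AdAC CellC, at 6.66, 3.88, 3.29 and 2.42 CPM, against 0.561, 0.341, 0.416 and 0.471 in neoAC CellC. It had no more than 3 counts in a library of AGES, neoAC direct or AdAC direct. Taking the lower groups at the floor of 3 counts per library, AdAC CellC was at least 43.6-fold higher than AdAC direct and at least 40.7-fold higher than AGES. Even so, Cox6a2 was 1.72 ± 0.812% of Cox6a1 and Cox6a2 in AdAC CellC, and its exons overlap Itgad on the other strand. The 4 mural markers summed to 854 to 1016 CPM in AdAC CellC, 302 to 662 in neoAC CellC, 289 to 313 in AdAC direct and 226 to 468 in neoAC direct. In the cultured groups this was mostly smooth muscle actin, Acta2, at 713 to 915 CPM in AdAC CellC and 56.8 to 75.9 in AdAC direct, whereas the other 3 were lower after adult culture, and their part was not tested.

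Cox8b, a muscle and brown fat form of subunit 8, marked AGES. It was at 12.7, 9.51, 5.12 and 9.01 CPM in AGES and 0.0652, 0.0607, 0.223 and 0.0669 in NSC, on 2 to 7 counts per NSC library, with every AGES library above every library of all other groups. Because the NSC libraries lay near the floor of 3 counts, no fold against NSC is given. Cox8b was 6.73 ± 2.16% of Cox8a and Cox8b per kilobase in AGES. Cox4i2, known as the lung and low-oxygen form of subunit 4, and Ndufa4l2, a relative of Ndufa4 induced by low oxygen, are also known as abundant in pericytes. Cox4i2 was at 2.89, 4.18, 3.7 and 2.29 CPM in neoAC direct and 4.08, 3.98, 4.25 and 3.89 in AdAC direct, against 0.811, 0.236, 0.388 and 0.637 and 1.01, 0.758, 1.27 and 0.713 in the cultured groups. It fell on culture at both ages (-2.67 ± 0.34, adjusted p = 1.68e-07 and -2.10 ± 0.32, adjusted p = 1.53e-06), with no overlap, and AGES, at 1.01, 1.04, 0.448 and 0.494 CPM, was at least 7.8-fold higher than NSC. Of the mural markers, Rgs5, Kcnj8 and Pdgfrb were lower after culture at both ages, and Acta2 was higher. Rgs5 was at 91.2 to 278 and 1.05 to 2.25 CPM in neonatal and 76.8 to 86.7 and 34.7 to 70.9 in adult cells. Kcnj8 was at 3.91 to 14.5 and 0.0262 to 0.0624 CPM in neonatal and 7.19 to 9.33 and 0.124 to 0.399 in adult cells. Acta2 was at 4.85 to 8.55 and 252 to 607 CPM in neonatal and 56.8 to 75.9 and 713 to 915 in adult cells. The part of these markers was not tested. Ndufa4l2 was at 3.41, 8.05, 2.82 and 2.79 CPM in neoAC direct and 1.4, 1.6, 1.99 and 1.41 in neoAC CellC (-1.42 ± 0.33, adjusted p = 5.74e-04, and -0.91 without neoAC direct 2). In adult cells it was at 4.33, 4.26, 4.6 and 3.44 and 3.34, 2.42, 3.08 and 3.07 CPM (-0.48 ± 0.32, adjusted p = 0.171). neoAC direct 2 was the highest library for both genes in its group, and its endothelial and mural marker sums were 261 and 468 CPM, against at most 102 and 308 in the other 3; this was not tested further. Exons of Ndufa4l2 overlap Shmt2 on the other strand.

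The widespread partners of these forms were higher on adult culture, and some of them on neonatal culture. Cox4i1 (0.35 ± 0.10, adjusted p = 0.00313), Cox6a1 (0.89 ± 0.12, adjusted p = 2.40e-07), and Cox7a2 (0.75 ± 0.08, adjusted p = 3.80e-09) were higher after adult culture, as were Cox8a (0.70 ± 0.11, adjusted p = 4.15e-06) and Ndufa4 (1.13 ± 0.07, adjusted p = 2.74e-13). After neonatal culture Cox7a2 (0.60 ± 0.08, adjusted p = 2.87e-07) and Ndufa4 (0.48 ± 0.07, adjusted p = 1.81e-06) were higher. Cox4i1 (-0.13 ± 0.10, adjusted p = 0.282), Cox6a1 (0.13 ± 0.12, adjusted p = 0.361) and Cox8a (0.23 ± 0.11, adjusted p = 0.0737) were not called there, nor was Cox6b1, described above. Ndufa4, first assigned to complex I and now to complex IV, was at 76.9, 65.9, 69.5 and 61.8 CPM in AdAC direct and 157, 144, 144 and 155 in AdAC CellC. In neonatal cells it was at 122, 126, 137 and 128 CPM in neoAC direct and 168, 186, 186 and 175 in neoAC CellC. AdAC direct was lowest and none of its libraries reached another primary group. Exons of Cox4i1 overlap Emc8 on the other strand.

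**Figure D5:**
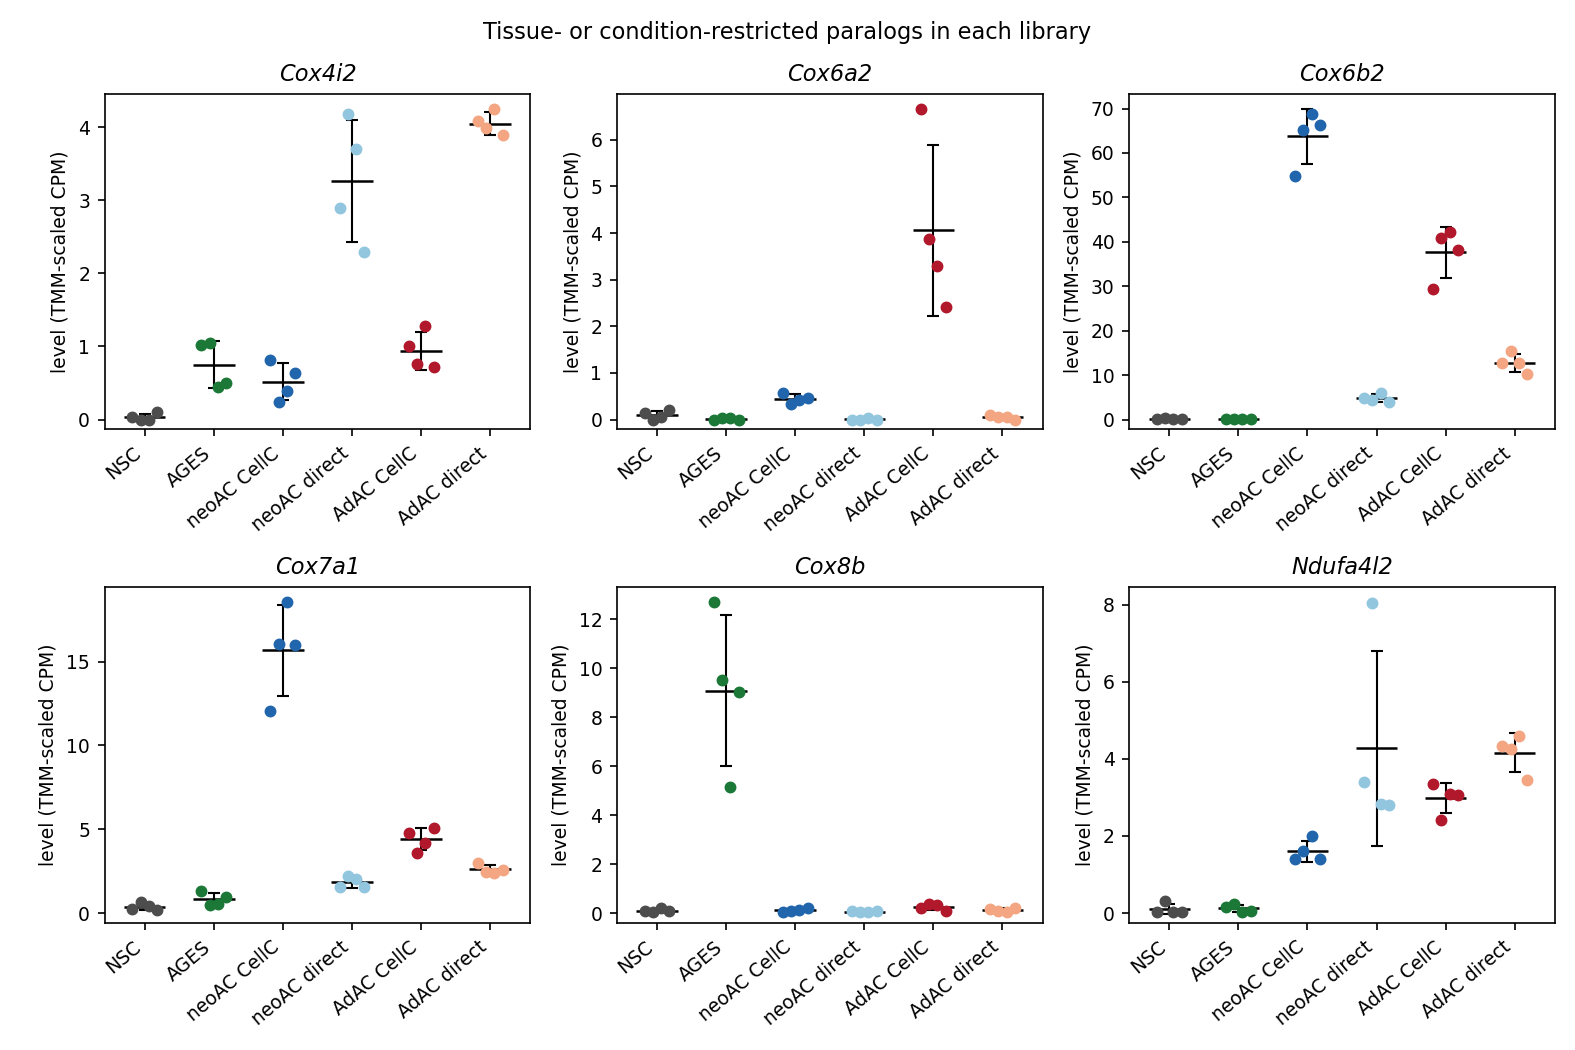
Levels of 6 tissue- or condition-restricted paralogs in TMM-scaled CPM by group, with 1 dot per library, a line at the mean and bars of 1 SD over 4 libraries. Cox6b2 and Cox7a1 are highest in neoAC CellC, Cox6a2 in AdAC CellC, Cox8b in AGES, and Cox4i2 in the directly isolated cells.

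Because most nuclear subunits moved together, their promoters are shown for the factors that are known to act on respiratory genes. RefSeq promoter windows of 250 bases before to 50 after the start (GRCm38.p6) were found for 66 of the 84 nuclear members (71 windows) and were searched on both strands for 4 exact motifs. GCGCATGCG (NRF1) was in 11.27% of members' windows and 1.75% of all 32851 and CCGGAAG (ETS factors such as GABPA) in 22.54% and 8.858%. AAGATGGC (YY1) was in 12.68% and 2.749% and TCAAGGTCA (estrogen-related receptors) in 2.817% and 0.4231%. At least 1 of the 4 was in 40.85% and 12.93%. A match is a run of letters and not evidence of binding, and its absence says only that these letters are not in the window. Below are 4 windows, written 5′ to 3′ on the minus strand that holds each gene, with matches in capitals. They are Cox6a1 (chr5:115348909-115349208) with an NRF1 match, which reads on both strands, and an ETS match, and Sdhd (chr9:50603800-50604099) with an ETS and an estrogen-related receptor match. Cox6b1 (chr7:30626065-30626364) has 1 ETS match, and its restricted relative Cox6b2 (chr7:4753045-4753344) has none.
Cox6a1: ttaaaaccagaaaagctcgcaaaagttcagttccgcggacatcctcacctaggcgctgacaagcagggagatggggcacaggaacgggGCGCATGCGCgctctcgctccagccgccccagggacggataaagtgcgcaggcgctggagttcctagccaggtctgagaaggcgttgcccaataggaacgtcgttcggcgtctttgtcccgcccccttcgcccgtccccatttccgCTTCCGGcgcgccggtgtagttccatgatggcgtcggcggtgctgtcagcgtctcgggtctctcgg
Sdhd: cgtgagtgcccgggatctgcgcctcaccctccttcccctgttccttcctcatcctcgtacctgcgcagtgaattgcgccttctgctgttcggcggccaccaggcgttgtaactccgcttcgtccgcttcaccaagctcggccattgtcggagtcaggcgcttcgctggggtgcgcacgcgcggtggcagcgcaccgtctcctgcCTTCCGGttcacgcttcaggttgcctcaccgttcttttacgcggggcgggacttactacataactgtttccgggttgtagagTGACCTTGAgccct
Cox6b1: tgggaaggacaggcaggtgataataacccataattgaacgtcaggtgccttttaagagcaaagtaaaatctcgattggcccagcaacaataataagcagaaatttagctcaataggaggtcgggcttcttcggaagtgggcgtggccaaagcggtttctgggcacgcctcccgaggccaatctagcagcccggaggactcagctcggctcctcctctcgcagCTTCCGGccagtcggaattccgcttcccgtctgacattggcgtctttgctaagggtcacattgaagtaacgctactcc
Cox6b2: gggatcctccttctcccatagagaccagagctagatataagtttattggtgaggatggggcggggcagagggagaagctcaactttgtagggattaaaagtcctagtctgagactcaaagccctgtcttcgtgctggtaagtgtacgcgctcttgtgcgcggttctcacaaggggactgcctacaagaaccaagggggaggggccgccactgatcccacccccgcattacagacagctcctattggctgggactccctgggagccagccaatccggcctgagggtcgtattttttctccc

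The nuclear subunits also differed by the length of their mRNA. On adult culture, the 29 members with an mRNA under 600 bases had 28 higher and 0 lower (median 0.81), and the 21 members of 1200 bases and over 12 higher and 1 lower (median 0.43). Other protein-coding genes under 600 bases (233 tested) had a median of 0.54, with 48.1% higher, and those of 1200 bases and over a median of 0.03, with 41.3% higher. On neonatal culture the medians were 0.40 for short and 0.17 for long members, beside 0.47 and -0.03 for other genes. Over the 82 members, Spearman's rho of mRNA length and log2 fold change was -0.47 on adult and -0.40 on neonatal culture, a description over genes that share their libraries. Short mRNAs, members and other genes alike, thus had a higher median than long ones after culture at both ages, and what part length had in the members' changes was not tested.

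Genes that build and feed the chain were counted on lists of their own, which were written with earlier results of these data known. Their counts stand beside 38.8% higher and 39.2% lower of all genes on adult culture, 34.4% and 31.3% on neonatal culture and 31.7% and 34.0% in AGES against NSC, and a share near these says nothing about a list. The mitochondrial ribosomal proteins, which translate the 13 mitochondrial genes, had 65 higher and 1 lower of 77 on adult culture (median 0.69) and 44 higher and 2 lower of 77 on neonatal culture. In AGES against NSC they had 5 higher and 69 lower of 77 (median -0.69). Examples were Mrps6 on adult culture (1.86 ± 0.12) and Mrpl12 in AGES against NSC (-1.93 ± 0.13). Assembly factors of complex I had 9 higher and 3 lower of 16, 9 higher and 2 lower of 16 and 1 higher and 12 lower of 16 in the same 3 comparisons. Those of complexes II to V had 21 higher and 6 lower of 33, 15 higher and 7 lower of 33 and 5 higher and 18 lower of 33. Genes for copying and expressing mitochondrial DNA had 11 higher and 7 lower of 24 on adult culture, 7 higher and 4 lower of 24 on neonatal culture and 0 higher and 18 lower of 24 in AGES. Polg, the polymerase of mitochondrial DNA, was at -1.36 ± 0.08 there. Enzymes of the citric acid cycle, which supplies NADH and succinate, had 9 higher and 3 lower of 18, 8 higher and 3 lower of 18 and 0 higher and 15 lower of 18, with fumarate hydratase Fh1 at -1.35 ± 0.08 in AGES. Among nuclear regulators of respiratory genes, 8 higher and 4 lower of 14, 2 higher and 7 lower of 14 and 4 higher and 8 lower of 14 were called. On adult culture these included Myc (3.58 ± 0.15) and the coactivator Pprc1 (2.08 ± 0.13) among the higher and Nr1d1 (-3.30 ± 0.15) and Ppara (-2.88 ± 0.18) among the lower. In AGES against NSC Ppargc1a, the coactivator PGC-1 alpha, was higher (1.92 ± 0.17) and Myc lower (-3.13 ± 0.15).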

How the data were processed

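Poly(A) RNA of 24 mouse libraries (6 groups of 4) was sequenced from a stranded kit, with an RNA integrity number of at least 7 and 100 ng of input per the labels. The deposited values are raw counts per gene, which the authors made with STAR 2.7.3a on GRCm38 and featureCounts with Gencode annotation. The methods list featureCounts options for exons and gene IDs (-t exon, -g gene_id), and no strand or multi-mapping option among them. No replicates were pooled and all 24 columns were used, matched to samples by their titles.

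Symbols and coordinates came from Gencode vM21 (GRCm38), which lacked 345 of the 49671 gene IDs. Genes passing edgeR's filterByExpr (19691) were scaled by TMM and fitted with all 6 groups in 1 model with edgeR's quasi-likelihood test (edgeR 4.0.16, R 4.3.3) and Benjamini-Hochberg adjustment over all genes tested, and a call needs an adjusted p under 0.05. The interaction is the change on culture in adult minus that in neonatal cells. RPKM used mRNA length. Totals of 27904126 to 37997368 counts set the precision, and chi-square tests found no 2 libraries that differ by sampling noise alone.

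One item is not reported here. Members were chosen by gene names alone, but that rule and the lists were set with earlier results of these data known. Named were the 13 mitochondrial genes, restricted paralogs and their partners, and catalytic and iron-sulfur subunits. The 3 highest and 3 lowest called nuclear log2 fold changes of each comparison were named too, among members of at least 10 CPM whose groups did not overlap. From context lists at most 4 genes were taken under the same conditions. Not every named change is printed above. Copies were sought as shared 100-base windows among Gencode transcripts. DESeq2 1.42.0, other scalings, filters, fits and left-out libraries served as alternatives. On simulated counts for adult culture (18667 genes), the test recovered 3 of 50 genes changed 1.25-fold, 29 of 50 changed 1.5-fold and 50 of 50 changed by each of 2-fold and 4-fold. Only these genes were changed there, with the same spread for every gene. In the data 38.8% of genes were called higher and 39.2% lower on adult culture. The adjusted p therefore cuts elsewhere, and these rates do not carry over to the data. Primary replicates were separate isolations and the NSC and AGES replicates passages of 1 line, so that p-values for the latter measure the spread between passages.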

Additional observations from a re-analysis of the deposited data

Results flagged for a closer look

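Of 186 groups of 4 libraries examined for a library far from the others, 18 held one. The rule flags about 1 in 20 groups of independent, normally spread values. Sums, ratios and single mitochondrial genes share their counts, and levels of a few counts are not normally spread. The 18 therefore cannot be set against that rate. Of the 18, 8 concerned the mitochondrial genes of neoAC direct 4. Its summed mitochondrial level was 19358 CPM against 10291 to 10708 in the other 3 libraries, and its ratio to the nuclear sum was 2.26 against 0.972 to 1.14. Single genes there were mt-Nd1 at 1795 CPM, mt-Nd2 at 1054, mt-Nd5 at 2136, mt-Nd6 at 11.8, mt-Cytb at 4436 and mt-Co1 at 8418. AGES 1 stood out with a mitochondrial sum of 22204 CPM against 18311 to 18617, mt-Nd5 at 3650.2 and mt-Cytb at 4979 CPM.

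Among nuclear subunits, a library stood out for Ndufa1 in AdAC CellC 1 (43.5 CPM against 41.8 to 41.9), Ndufb10 in neoAC CellC 3 (131 CPM against 115 to 117), Cox6c in AGES 3 (327 CPM against 277 to 281) and Ndufa4l2 in neoAC direct 2 (8.05 CPM against 2.79 to 3.41). At a few counts each, the same held for Cox8b in NSC 3 (0.223 CPM against 0.0607 to 0.0669), Ndufa4l2 in NSC 2 (0.303 CPM against 0.0318 to 0.0334) and Cox6a2 in neoAC direct 3 (0.034 CPM, the others at 0).

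The log2 change on culture differed between adult and neonatal cells, by the interaction term in edgeR's quasi-likelihood test with Benjamini-Hochberg adjustment, for 14 of the 27 members examined, beside 68.6% of all genes tested. It was larger in adult cells for Cox6b1 (1.15), Cox7a2l (1.11), Ndufb6 (1.05), Uqcrq (0.98), Ndufa1 (0.79), Atp5b (0.76), Sdhd (0.53) and Cox5a (0.43). It was lower in adult cells for Cox7a1 (-2.34), Cox6b2 (-2.15), Atp5s (-0.99), mt-Nd2 (-0.97), Ndufb10 (-0.70) and mt-Cytb (-0.62).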

How the results depend on the processing

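Of 291 named member results, 279 kept their direction and call with DESeq2's size factors, 260 with library size alone, 291 with scaling from nuclear genes, 258 without the filter, 278 with DESeq2's Wald test and 290 with copy counts added; with 10 counts required of each library 233 of 259, and over single left-out libraries 2403 of 2560. Reversed were Ndufc1, AGES against AdAC CellC, with library size alone (-0.0125) and mt-Atp6, neoAC CellC against neoAC direct, without neoAC direct 4 (0.0198, against -1.25 without neoAC direct 3, and 0.0188 also without AdAC direct 4). The causes were not tested. Under alternative settings, here and above, members alone were counted, and the share of all genes called was not. A shift of the members and a shift of all calls therefore cannot be told apart in these counts.

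On adult culture, lower nuclear subunits were 5 with size factors and 6 without the filter, with at least 10 counts and with the Wald test. Lower mitochondrial genes were 1 with library size alone and 4 with at least 10 counts, in a fit of the 2 groups, with a replicate block and without both doubted libraries, and 0 to 2 over left-out libraries. On neonatal culture, lower nuclear subunits were 6 without the filter and without both libraries, 0 with at least 10 counts and 2 to 6 over left-out libraries. Higher mitochondrial genes were 9 without both libraries and 4 to 9 over left-out ones, and lower ones 1 with library size alone, 0 in a fit of the 2 groups, with the block and without both libraries, and 0 to 2 over left-out ones. In AGES against NSC, lower mitochondrial genes were 5 without the filter and with at least 10 counts and 5 to 9 over left-out libraries, and higher ones 2 in a fit of the 2 groups and with the block. In neoAC direct against AdAC direct, lower nuclear subunits were 4 with library size alone and 2 to 4 over left-out libraries. Lower mitochondrial genes were 1 with library size alone, at least 10 counts and the block, 4 without both libraries and 0 to 5 over left-out ones, and higher ones 1 to 3. In neoAC CellC against AdAC CellC, higher nuclear subunits were 58 in a fit of the 2 groups, lower ones 1 with at least 10 counts and 2 to 5 over left-out libraries, and higher mitochondrial genes 5 to 8. In AGES against AdAC CellC, higher nuclear subunits were 9 with library size alone, 43 in a fit of the 2 groups and 41 with the block, and lower ones 38 with library size alone and 12 without the filter. In AGES against neoAC CellC, higher nuclear subunits were 2 with library size alone and 6 with at least 10 counts, lower ones 66 with library size alone, and higher mitochondrial genes 0 with library size alone and 2 in a fit of the 2 groups and with the block. For the interaction, positive nuclear subunits were 24 with library size alone and 20 with at least 10 counts, and negative mitochondrial genes 5 with at least 10 counts, 10 without both libraries and 2 to 10 over left-out ones.

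The nuclear sum was 11649 CPM in neoAC CellC and 9475 in AdAC CellC with size factors, 8698 in AGES, 12541 in neoAC CellC and 10366 in AdAC CellC with library size alone, and 9723 in AGES with scaling from nuclear genes. Without the 8 members that share many 100-base windows with other genes (mt-Nd3, mt-Nd4, mt-Nd4l, mt-Co1, mt-Co2, mt-Co3, mt-Atp6 and Atp5g2), the mitochondrial sum was 13280.0 CPM in NSC, 10865 in AGES, 9611 in neoAC CellC, 6239 in neoAC direct, 6389.6 in AdAC CellC and 6099 in AdAC direct, and its ratio to the nuclear sum 1.09, 1.14, 0.869, 0.668, 0.66 and 0.931. Per kilobase the ratio was 1.27 in NSC, 1.23 in AGES, 1.03 in neoAC CellC, 0.897 in neoAC direct, 0.805 in AdAC CellC and 1.32 in AdAC direct. Replicate numbers were not taken to pair the samples. The correlation of same-numbered libraries lay between -0.17 and 0.44 over the 7 comparisons, in none did every pair exceed 0.1, and in none did every library correlate best with its own number; in neoAC direct against AdAC direct 3 of 4 pairs exceeded 0.1, replicate 4, the number of both doubted libraries, the most (0.44). With the replicate number as a block, lower nuclear subunits in AGES against NSC were 33. Leaving out neoAC direct 4 with AdAC direct 4, and adding copy counts, were chosen after seeing the data. Members at a few counts per library (Cox6a2, Cox6b2, Cox8b, Ndufa4l2) are limited by depth.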

Other observations

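Genes of mitochondrial mass and carriers, among them channels, carriers and cytochrome c, had 17 higher and 2 lower of 20 on adult culture, 8 higher and 4 lower of 20 on neonatal culture and 1 higher and 15 lower of 20 in AGES against NSC. Of all genes, 38.8% were higher and 39.2% lower on adult culture, 34.4% and 31.3% on neonatal culture and 31.7% and 34.0% in AGES against NSC. Cytochrome c, Cycs, which carries electrons from complex III to complex IV, was at 1.53 ± 0.09 on adult culture, and the adenine nucleotide carrier Slc25a5 at 1.29 ± 0.10 in neoAC direct against AdAC direct and -0.42 ± 0.10 on neonatal culture. In neoAC direct against AdAC direct, enzymes of the citric acid cycle had 13 higher and 0 lower of 18 and mitochondrial ribosomal proteins 41 higher and 9 lower of 77, beside 35.0% and 36.4% of all genes.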
